A study of Mus musculus with 18 samples.

Results

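Cdh1, Cdh2, Cdh3, Epcam, Jam2 and Cldn6, 6 adhesion genes of the cell surface, were followed through the formation of germ cell-like cells in culture, with and without a working copy of the nuclear receptor gene Esrrb. They were taken by symbol from the deposited table, as 6 of its 25909 genes with an identifier. RNA came from 18 libraries, 3 in each of 6 groups: KO and WT EpiLC, KO and WT PGCLC at day 3, and KO and WT PGCLC at day 5. All were made from SGET mouse embryonic stem cells of strain B6CBA/129, kept in 2i/L on gelatin, which carry reporters of Stella (SG) and Esg1 (ET), so WT cells hold both reporters too. Epiblast-like cells (EpiLC) were induced on fibronectin by activin A and bFGF and were not sorted. Primordial germ cell-like cells (PGCLC) were induced from EpiLC by BMP4, LIF, SCF, BMP8a and EGF, and were sorted as SG+ETlow, so every difference between EpiLC and PGCLC also sets unsorted against sorted cells. KO replicates carry the names A5, B1 and A2, which recur at each stage and are called lines here, and WT replicates carry numbers. Whether the lines are separate clones, which part of Esrrb was deleted and whether WT replicates were separate cultures are questions that the sources used here do not answer, and p-values measure only the spread between these libraries, which may be technical for WT.

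Classical cadherins hold neighbouring cells together in adherens junctions: the same cadherin on adjacent cells binds in the presence of calcium, and catenins link its tail to actin. E-cadherin (Cdh1) is the cadherin of epithelia, of pluripotent cells and of mouse germ cells, N-cadherin (Cdh2) is typical of mesenchymal and neural cells, and P-cadherin (Cdh3) is found in placenta and in several epithelia. Epcam is an epithelial adhesion molecule that also marks embryonic stem cells and early germ cells, Jam2 is an immunoglobulin-family junctional adhesion molecule found at tight junctions and on endothelium, and Cldn6 is a claudin, a tight junction strand protein typical of embryonic epithelia. A move from E-cadherin to N-cadherin, driven by Snail and Zeb repressors that bind E-boxes, is a classical feature of the epithelial to mesenchymal transition (EMT).

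Promoter sequence from RefSeq (GRCm38.p6) was at hand for Epcam and Cldn6, 2 of the 6 genes. Both are shown because they hold the E-box read by Snail and Zeb factors, whose levels are given further on. Each window runs from 250 bases before the RefSeq start to 50 bases after it, and capitals mark CACCTG on either strand (CAGGTG on the strand shown).
Epcam promoter, chr17:87635729-87636028, forward strand: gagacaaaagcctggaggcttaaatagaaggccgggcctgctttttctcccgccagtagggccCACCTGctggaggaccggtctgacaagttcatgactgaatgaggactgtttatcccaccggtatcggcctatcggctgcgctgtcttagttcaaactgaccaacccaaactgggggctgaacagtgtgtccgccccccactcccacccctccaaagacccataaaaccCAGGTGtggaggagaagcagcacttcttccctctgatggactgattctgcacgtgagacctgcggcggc
Cldn6 promoter, chr17:23679115-23679414, forward strand: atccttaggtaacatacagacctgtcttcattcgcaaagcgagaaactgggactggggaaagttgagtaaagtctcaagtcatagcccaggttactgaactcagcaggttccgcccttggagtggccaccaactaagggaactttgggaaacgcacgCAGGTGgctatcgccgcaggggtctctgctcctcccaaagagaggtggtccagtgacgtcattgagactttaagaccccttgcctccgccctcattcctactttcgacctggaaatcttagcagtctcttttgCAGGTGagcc
Counted from the start base as 0, the E-boxes began at -187 and -19 in Epcam and at -93 and 40 in Cldn6. At least 1 such E-box was found in 20.2% of 32851 promoter windows of this length, and 2 or more in 2.88%. The motif AAGGTCA, the core of the site that Esrrb binds, was in neither window on either strand, against 4.72% of all windows. Its longer form TCAAGGTCA, which contains it, was in 0.423% of all windows. These matches are descriptions of letters and say nothing of binding.

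In GENCODE M21 on GRCm38, Cdh1 (ENSMUSG00000000303) spans chromosome 8, 106603351 to 106670246, and Cdh3 (ENSMUSG00000061048) lies just before it at 106510891 to 106557297 on the same forward strand, with 46053 bases between them. Cdh2 (ENSMUSG00000024304) lies on chromosome 18, 16588877 to 16809246, on the reverse strand. Epcam (ENSMUSG00000045394) and Cldn6 (ENSMUSG00000023906) are both on the forward strand of chromosome 17, at 87635979 to 87651129 and at 23679249 to 23682446, and Jam2 (ENSMUSG00000053062) is on chromosome 16, 84774123 to 84825928, forward strand. No exon of the 6 genes shared a base with an exon of another gene, although Cldn9, a claudin on the opposite strand, begins 137 bases after Cldn6 ends, and whether counting used strand is not stated in the sources used here.

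Library totals ran from 3032965 to 5286330 counts (median 4246222). Esrrb had 29 and 18 counts in KO EpiLC A5 and B1, against 79 to 127 in WT EpiLC. It had 167 counts in the EpiLC library labelled KO A2, above every WT EpiLC library. That library had the chromosome 16 shift of line A2 given below (-0.42), and its label was not tested further. In PGCLC Esrrb had 359 to 745 counts in KO and 2596 to 3125 in WT at day 3, and at day 5 it had 600 to 933 in KO and 2434 to 2987 in WT, so transcript remained in KO. Formative epiblast markers (8 genes) summed to 1764 to 4158 CPM (counts scaled to the library total, as deposited) in KO EpiLC, lowest in the library labelled KO A2, against 5102 to 5216 CPM in WT EpiLC and at most 673 CPM in PGCLC. Germ cell markers (9 genes, all detected in PGCLC) summed to 726 to 1168 CPM in PGCLC and to 117 to 167 CPM in EpiLC. The EpiLC library labelled KO A2 stood apart, with trophoblast markers (10 genes, Elf5 at 0) at 1337 CPM, against 58.0 to 67.3 CPM in WT, and mesenchyme markers (10 genes, Lum at 0) at 645 CPM, against 51.4 to 59.2 CPM in WT. KO EpiLC A5 and B1 also lay above every WT EpiLC library, by less. They had 213 and 97.2 CPM of trophoblast markers and 125 and 110 CPM of mesenchyme markers. Krt8, a keratin gene on the trophoblast list, gave 472 of the 1337 CPM, so the sum does not by itself name a cell type. The median gene of chromosome 16 was lower in lines A2 and B1 than in WT at every stage (log2 difference -0.46 to -0.39, 393 genes) but not in line A5 (0.02 to 0.04). On chromosome 8 the median gene in KO libraries lay at -0.08 to -0.01 in EpiLC and at -0.18 to -0.13 in PGCLC (691 genes). Both shifts are set beside the genes they touch.

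Levels differed widely between the 6 genes. Scaled by exon length, Epcam and Cdh1 stood highest in EpiLC, with 150 ± 47.1 and 127 ± 11.6 CPM per kilobase in KO and 205 ± 4.57 and 151 ± 8.45 CPM per kilobase in WT (SD, n = 3). Cldn6 followed with 42 ± 3.01 in KO and 36.4 ± 1.90 in WT. Cdh3 had 5.62 ± 0.263 in KO and 5.31 ± 0.480 in WT, Cdh2 2.51 ± 1.65 in KO and 1.06 ± 0.0335 in WT, and Jam2 0.168 ± 0.157 in KO and 0.259 ± 0.0452 CPM per kilobase in WT. By day 5 Jam2 had come to 9.02 ± 3.37 in KO and 19.6 ± 1.18 in WT, close to Cdh3 at 10.1 ± 1.33 in KO and 18.7 ± 1.18 CPM per kilobase in WT.

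**Figure D1:**
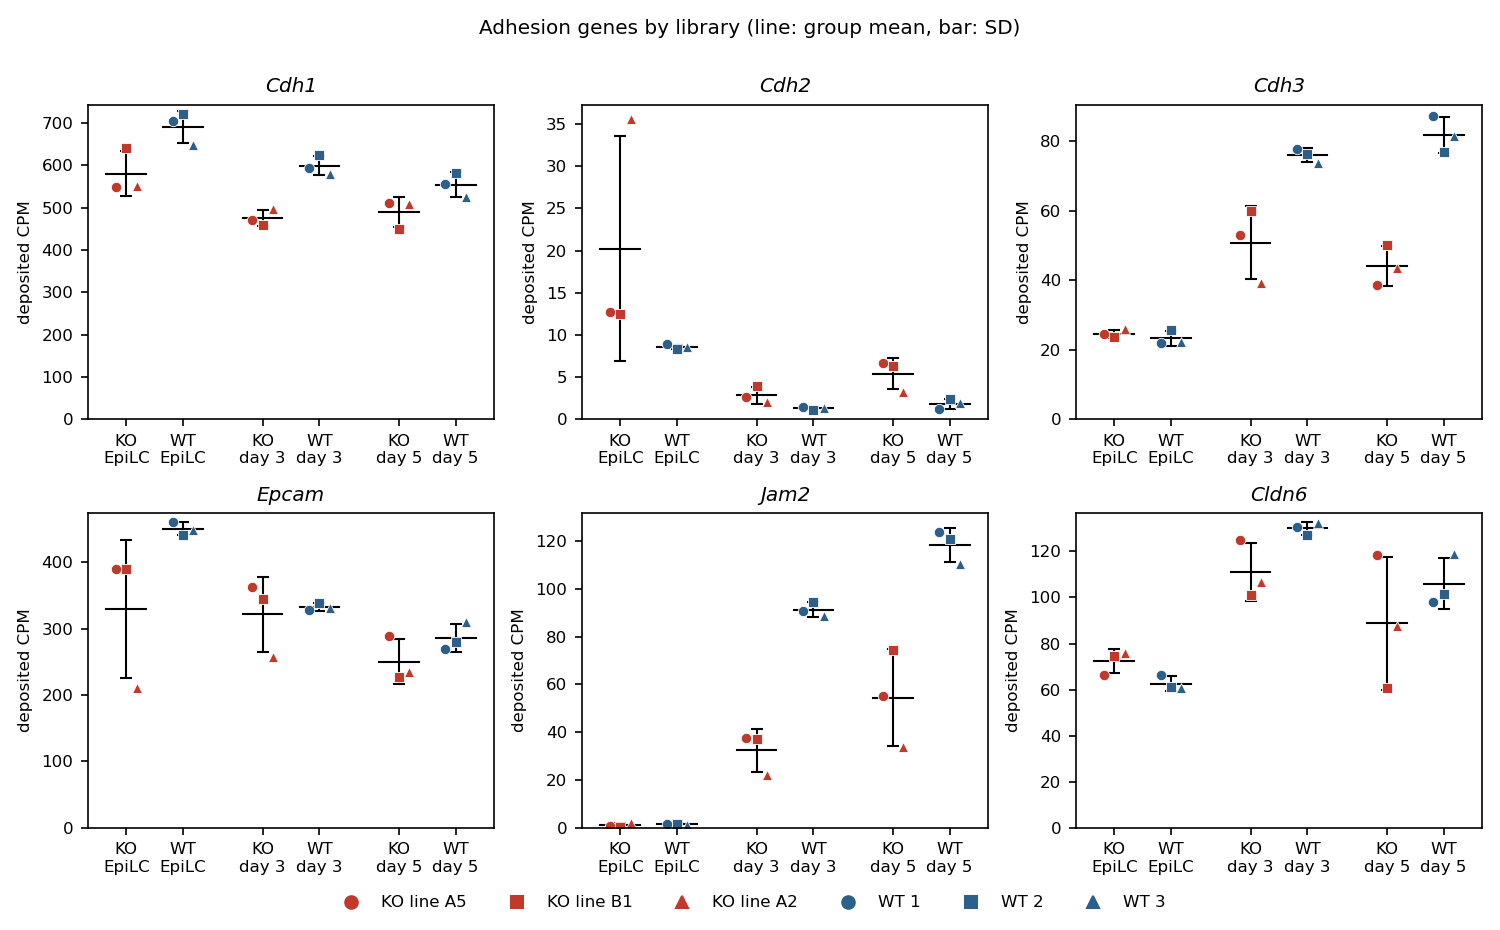
Deposited CPM of each gene in every library by stage, KO left of WT at each stage, with points for libraries, a line for the group mean and a bar for its SD (n = 3). Cdh1, Cdh3 and Jam2 show every KO library below every WT library at day 3 and day 5, and Cldn6 does at day 3. In EpiLC the library labelled KO A2 stands apart for Cdh2 (35.6 CPM) and Epcam (210 CPM).

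Comparing KO with WT at each stage asks whether the loss of Esrrb went with a change of these genes. In PGCLC, Cdh3 and Jam2 fell in KO at both days, Cdh1 fell at day 3 and Cdh2 rose at day 5. In EpiLC, Cdh1 fell and Cdh2 rose in KO. By edgeR (Benjamini-Hochberg adjusted p under 0.05), 2 of 6 changed in EpiLC, where 11.1% of 12856 tested genes did. The count at day 3 was 3 of 6, against 10.2% of all tested genes, and at day 5 it was 3 of 6, against 17.5%. All 6 genes passed the filter on low counts. Counting instead genes whose KO and WT libraries did not overlap in deposited CPM gave 3 of 6 in EpiLC, 5 of 6 at day 3 and 4 of 6 at day 5. Over all tested genes the shares were 32.3%, 36.6% and 41.1%, but on log2 CPM with TMM scaling. A narrow gap, such as that of Cdh1 in EpiLC, may not hold on that scale, so counts and shares compare only roughly. With the 3 libraries of line A2 left out, 2, 4 and 4 of 6 changed at the 3 stages, against 13.8%, 20.9% and 29.9% of all tested genes. The 2 in EpiLC were then Cdh1 and Epcam, and Cdh2 no longer passed by edgeR (0.48, adjusted p = 0.139). In bulk RNA, fewer cells that carry a transcript and less of it in each cell cannot be told apart.

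**Figure D2:**
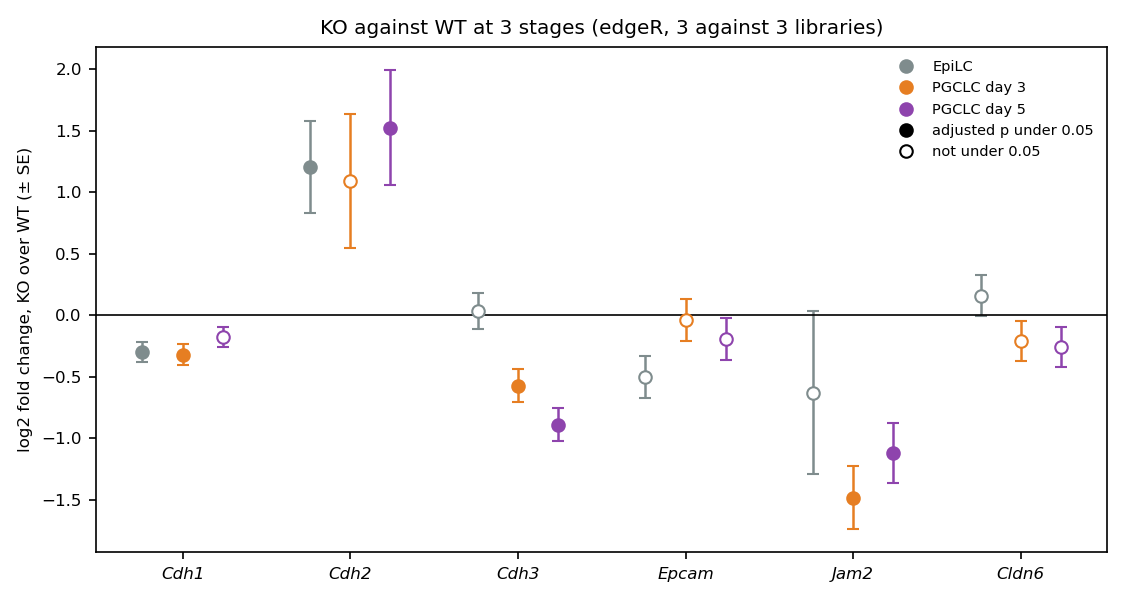
Log2 fold change of KO over WT for the 6 genes at EpiLC, day 3 and day 5, with bars for the SE, from edgeR (3 against 3 libraries). Jam2 at day 3 (-1.49) lies lowest and Cdh2 at day 5 (1.52) highest among the changes that passed the test.

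The step comparisons ask how the genes moved on the way from epiblast-like to germ cell-like cells. From EpiLC to day 3, KO cells raised Jam2 (log2 fold change 4.93 ± 0.42), Cdh3 (1.04 ± 0.14) and Cldn6 (0.63 ± 0.17) and lowered Cdh2 (-2.86 ± 0.43) and Cdh1 (-0.28 ± 0.08), so 5 of 6 changed by edgeR, where 42% of all tested genes did. Epcam did not pass in KO (-0.02 ± 0.17). WT cells changed these 5 in the same directions and Epcam too, 6 of 6, where 57.5% of all tested genes changed: Jam2 5.79 ± 0.37, Cdh3 1.65 ± 0.14, Cldn6 1 ± 0.17, Cdh2 -2.74 ± 0.48, Epcam -0.49 ± 0.17 and Cdh1 -0.26 ± 0.08. Some of these calls were lost when 1 library was left out. In KO, Cdh1 was lost without either B1 library (adjusted p up to 0.0760). In WT, Epcam was lost without WT EpiLC 1, WT day 3 1 or WT day 3 3 (up to 0.0560) and Cdh1 without WT EpiLC 2 or WT day 3 3 (up to 0.0587). The log2 fold change of Epcam in WT stayed between -0.50 and -0.47 whichever library was left out. Between day 3 and day 5, edgeR called 0 of 6 in KO, with 3 at an unadjusted p under 0.05, and 0 of 6 in WT, with 0 at an unadjusted p under 0.05, where 0.552% of all tested genes were called in KO and 0.77% in WT. DESeq2 also called 0 in both. With only the WT groups of this step fitted, edgeR did call Jam2, Epcam, Cldn6 and Cdh1, at a higher share of all genes (given further on). Whether the step itself differed between KO and WT was tested as an interaction: for EpiLC to day 3 edgeR and DESeq2 called 0 of 6 (1 at an unadjusted p under 0.05), against 6.59% of all tested genes, and for day 3 to day 5 they called 0 of 6 (0 at an unadjusted p under 0.05), against 0% of all.

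Cdh1, the E-cadherin gene, was abundant at every stage and a little lower in KO. In EpiLC it had 549 (A5), 642 (B1) and 551 CPM (labelled A2) in KO, against 705, 721 and 647 CPM in WT. The day 3 values were 471, 458 and 497 CPM in KO and 594, 624 and 580 CPM in WT. Those of day 5 were 511, 449 and 510 CPM in KO and 556, 583 and 525 CPM in WT. Every KO library thus lay below every WT library of its stage, with the narrowest gap in EpiLC (642 CPM in KO B1 against 647 CPM in WT). The difference passed the test in EpiLC (log2 fold change -0.30 ± 0.08, 1.23-fold lower, edgeR adjusted p = 0.0320) and at day 3 (-0.32 ± 0.08, 1.25-fold lower, adjusted p = 0.0219), but not at day 5 (-0.18 ± 0.08, adjusted p = 0.153). Its highest group was WT EpiLC (691 ± 38.6 CPM), apart from WT day 3 (599 ± 22.3), while WT day 3, KO EpiLC (580 ± 53.1) and WT day 5 (555 ± 28.9) overlapped with their neighbours in that order, as did KO day 5 (490 ± 35.2) and KO day 3 (476 ± 19.9 CPM). Leaving out KO A5, the library labelled KO A2 or any of the 3 WT libraries ended the EpiLC call (adjusted p up to 0.116), and leaving out KO B1 or any of the 3 WT libraries ended the day 3 call (up to 0.0982). With all of line A2 left out, Cdh1 passed at all 3 stages, at -0.29 in EpiLC (adjusted p = 0.0113), -0.36 at day 3 (adjusted p = 0.00103) and -0.23 at day 5 (adjusted p = 0.0239). With the median shift of each chromosome subtracted (limma-trend), Cdh1 was at -0.21 in EpiLC (adjusted p = 0.0694) and -0.18 at day 3 (adjusted p = 0.132), against -0.25 (adjusted p = 0.0585) and -0.33 (adjusted p = 0.0152) by limma-trend without that subtraction.

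Cdh3, the P-cadherin gene next to Cdh1, did not follow it. In EpiLC it had 24.5, 23.6 and 25.9 CPM in KO (A5, B1 and labelled A2) and 22.0, 25.7 and 22.1 CPM in WT, and the groups overlapped (0.03 ± 0.15, adjusted p = 0.904). Day 3 libraries had 53.0, 60.0 and 39.3 CPM in KO against 77.8, 76.4 and 73.8 CPM in WT. At day 5 it had 38.6, 50.2 and 43.5 CPM in KO against 87.2, 76.9 and 81.4 CPM in WT. Both genotypes gained Cdh3 on the way to PGCLC, and KO PGCLC held less of it in every library. It fell 1.49-fold in KO at day 3 (log2 fold change -0.57 ± 0.14, edgeR adjusted p = 0.0131) and 1.85-fold at day 5 (-0.89 ± 0.14, adjusted p = 0.000319). In the order of levels WT day 5 (81.8 ± 5.18 CPM) and WT day 3 (76.0 ± 2.05) overlapped, KO day 3 (50.8 ± 10.5) and KO day 5 (44.1 ± 5.84) overlapped, and KO EpiLC (24.6 ± 1.16) and WT EpiLC (23.3 ± 2.10 CPM) overlapped, with gaps between these 3 pairs. The smaller gain in KO was not called as an interaction (-0.61 ± 0.20, adjusted p = 0.0778), but it passed by limma-trend (-0.68, adjusted p = 0.0429) and without the day 3 library KO B1 (-0.73, adjusted p = 0.0450). The day 5 call held without any 1 library (adjusted p up to 0.00281) and with chromosome medians subtracted (-0.75, adjusted p = 0.00125), while the day 3 call was lost without WT 1 or KO A2 (up to 0.0515) and with chromosome medians subtracted (-0.44, adjusted p = 0.0513).

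Cdh2, the N-cadherin gene, was the only one of the 6 with every KO library above every WT library at all 3 stages. In EpiLC it had 12.7, 12.4 and 35.6 CPM in KO (A5, B1 and labelled A2), against 8.86, 8.33 and 8.53 CPM in WT. The library labelled KO A2, where the sums of the mesenchyme and trophoblast marker lists were also high, was far above the others. At day 3 counts were few, with 12, 12 and 8 counts in KO and 6 in each WT library. At day 5 it had 6.64, 6.33 and 3.27 CPM in KO (27, 29 and 16 counts), against 1.22, 2.44 and 1.89 CPM in WT (6, 12 and 8 counts). It rose in KO EpiLC (log2 fold change 1.2 ± 0.37, 2.30-fold, edgeR adjusted p = 0.0487) and in KO at day 5 (1.52 ± 0.47, 2.87-fold, adjusted p = 0.0342), and did not pass at day 3 (1.09 ± 0.55, adjusted p = 0.228). Leaving out any of the 3 WT libraries ended the EpiLC call, as did leaving out the one labelled KO A2, after which the log2 fold change was 0.48 (adjusted p = 0.323), so its size rested on that library. Chromosome 18, where Cdh2 lies, had medians of 0.11 to 0.16 in KO EpiLC and 0.02 to 0.09 in KO PGCLC. With these subtracted (limma-trend), Cdh2 was at 0.85 in EpiLC (adjusted p = 0.111) and 1.07 at day 5 (adjusted p = 0.0392). The day 5 call ended without KO A5, KO B1 or any of the 3 WT libraries (adjusted p up to 0.132), but without line A2 it was 1.78 (adjusted p = 8.65e-05), and day 3 then passed at 1.26 (adjusted p = 0.0273). Mesenchyme markers at day 5 summed to 32.5 to 104 CPM in KO and 15.3 to 18.4 CPM in WT, and their part in the Cdh2 difference was not tested. In the order of levels, KO EpiLC (20.2 ± 13.3 CPM), WT EpiLC (8.57 ± 0.270) and KO day 5 (5.41 ± 1.86) were apart, and KO day 3 (2.85 ± 0.998), WT day 5 (1.85 ± 0.607) and WT day 3 (1.32 ± 0.161 CPM) each overlapped with the group before.

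Set against Cdh1 within the same library, which removes library size, Cdh2 stayed a small share. Cdh2 counts were 2.31%, 1.94% and 6.46% of Cdh1 counts in KO EpiLC (A5, B1 and labelled A2), against 1.26%, 1.16% and 1.32% in WT EpiLC. At day 3 they were 0.405% to 0.864% in KO against 0.182% to 0.243% in WT, and at day 5 0.642% to 1.41% in KO against 0.220% to 0.418% in WT. The share was higher in every KO library than in every WT library of its stage, and in both genotypes lower at day 3 than in EpiLC. Cdh3 counts made up 7.90% to 13.1% of Cdh1 counts in KO and 12.3% to 13.1% in WT at day 3, where the groups overlapped, and 7.56% to 11.2% in KO against 13.2% to 15.7% in WT at day 5, where they did not. In EpiLC Cdh3 stood at 3.68% to 4.70% of Cdh1 in KO and 3.13% to 3.56% in WT, so against Cdh1 the KO share was the higher in EpiLC and the lower at day 5. These ratios of counts ignore transcript length, and the sequenced Cdh2 counts behind them at day 3 were 8 to 12 per KO library and 6 per WT library.

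**Figure D3:**
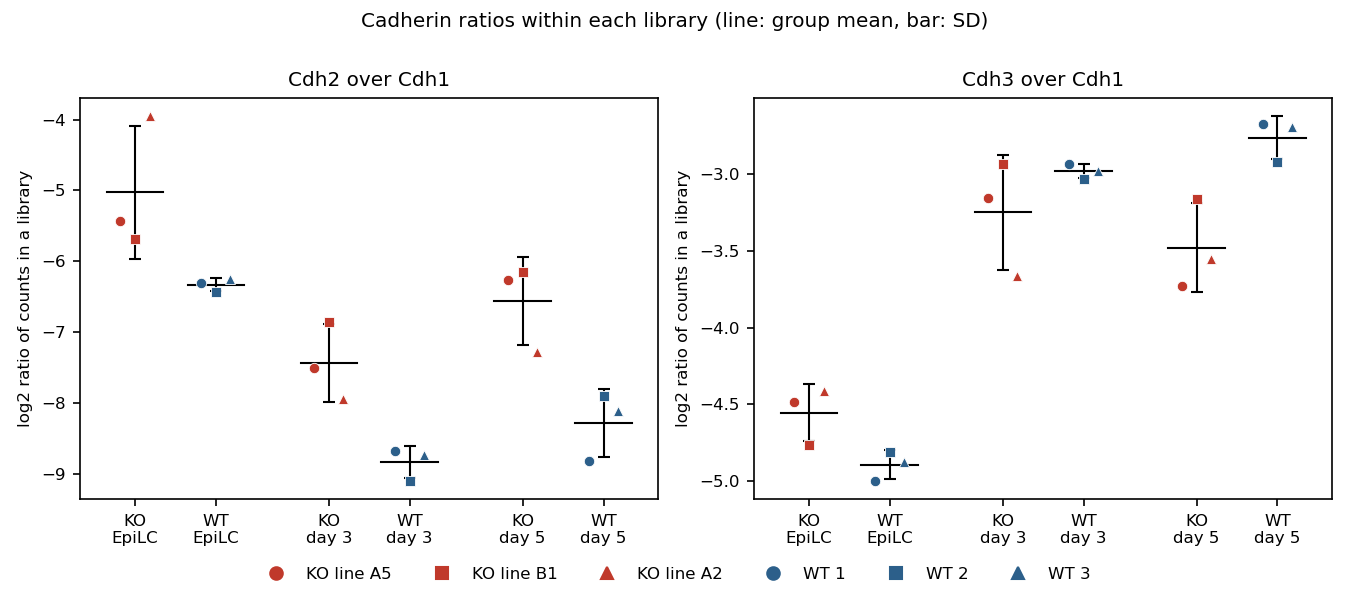
Log2 ratio of Cdh2 to Cdh1 counts and of Cdh3 to Cdh1 counts within each library, by stage, KO left of WT, with points for libraries, a line for the mean and a bar for the SD (n = 3). For Cdh2 every KO point lies above every WT point of its stage, and for Cdh3 the KO points lie below WT at day 5.

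Epcam, an epithelial adhesion molecule that also marks pluripotent cells, was lower in KO EpiLC and close to WT in PGCLC. In EpiLC it had 390, 389 and 210 CPM in KO (A5, B1 and labelled A2), against 461, 441 and 448 CPM in WT. Every KO library was below WT there, the one labelled A2 by far the most. At day 3 it had 362, 344 and 258 CPM in KO and 327, 339 and 331 CPM in WT, and at day 5 289, 227 and 235 CPM in KO and 269, 280 and 310 CPM in WT, with the groups overlapping at both days. No difference passed by edgeR (EpiLC -0.51 ± 0.17, adjusted p = 0.0648, day 3 -0.04 ± 0.17, adjusted p = 0.924, day 5 -0.20 ± 0.17, adjusted p = 0.470). The EpiLC difference did pass by DESeq2 (-0.51, adjusted p = 0.0382), without KO A5 (-0.63, adjusted p = 0.0330), without KO B1 (-0.64, adjusted p = 0.0263) and, at a smaller size, without line A2 (-0.28, adjusted p = 0.0175). KO cells stood at 321 ± 55.9 CPM at day 3 and 330 ± 103 CPM in EpiLC (-0.02 ± 0.17, adjusted p = 0.925), while WT cells lowered Epcam to 333 ± 5.85 CPM at day 3, against 450 ± 10.04 CPM in EpiLC. The difference between these steps did not pass (0.47 ± 0.24, adjusted p = 0.252), but did without line A2 (0.37, adjusted p = 0.0241). Below WT EpiLC the other 5 groups, down to WT day 5 (286 ± 21.2) and KO day 5 (250 ± 33.5 CPM), each overlapped with the next.

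Jam2, a junctional adhesion molecule, had the widest range of the 6. In EpiLC it was near the limit of detection, with 3, 1 and 9 counts in KO (A5, B1 and labelled A2) and 7, 7 and 5 counts in WT. Day 3 libraries had 37.7, 37.3 and 22.2 CPM in KO, against 90.8, 94.6 and 88.5 CPM in WT. Day 5 libraries had 55.3, 74.5 and 33.7 CPM in KO, against 124, 121 and 110 CPM in WT. Both genotypes switched it on in PGCLC, and all KO libraries lay well below WT at both days. It fell 2.80-fold in KO at day 3 (log2 fold change -1.49 ± 0.26, edgeR adjusted p = 0.00175) and 2.18-fold at day 5 (-1.12 ± 0.25, adjusted p = 0.00498). Both calls held without any 1 library (adjusted p up to 0.0101 at day 3 and 0.0233 at day 5). In EpiLC no difference was detectable at this depth (-0.63 ± 0.67, adjusted p = 0.558), and the interaction with the step to day 3 did not pass (-0.86 ± 0.75, adjusted p = 0.526). In the order of levels WT day 5 (118 ± 7.13 CPM) and WT day 3 (91.3 ± 3.05) were apart from each other and from KO, KO day 5 (54.5 ± 20.4) and KO day 3 (32.4 ± 8.85) overlapped, and WT EpiLC (1.56 ± 0.274) and KO EpiLC (1.01 ± 0.951 CPM) overlapped at the bottom.

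Jam2 lies on chromosome 16, whose median gene was shifted in lines A2 and B1. Line A5, with no such shift (0.02 at day 3 and 0.04 at day 5), had 41.3% of the WT mean of Jam2 at day 3 and 46.8% at day 5. Line B1, with a shift of -0.43 and -0.40, had 40.8% at day 3 and 63.0% at day 5, and line A2, with a shift of -0.45 and -0.46, had 24.3% and 28.5%. The line without the shift thus lay about where line B1 did at day 3 and between the others at day 5. With chromosome medians subtracted, Jam2 passed at day 3 (-1.19, adjusted p = 0.0173) and stood at -0.87 (adjusted p = 0.0553, limma-trend) at day 5.

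**Figure D4:**
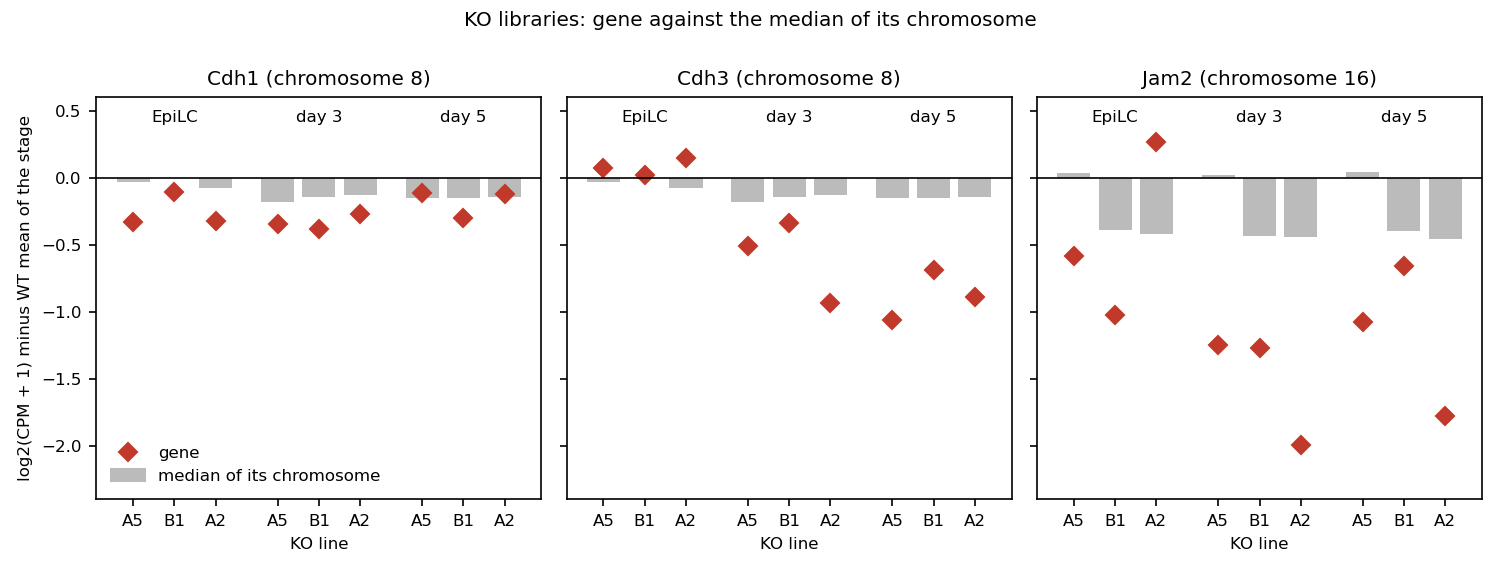
For each KO line and stage, the difference in log2(CPM + 1) of Cdh1, Cdh3 and Jam2 from the WT mean of the stage (red diamonds) over the median difference of the tested genes of the same chromosome (grey bars). For Jam2 at day 3 and day 5, line A5 shows a fall with a chromosome 16 median near 0 (0.02 at day 3), while lines B1 and A2 show both. In EpiLC, where KO libraries had 1 to 9 counts of Jam2, the library labelled KO A2 lay above the WT mean (0.27).

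Cldn6, the embryonic claudin, rose on the way to PGCLC in both genotypes and did not pass between KO and WT at any stage. In EpiLC it had 66.3, 74.6 and 75.8 CPM in KO (A5, B1 and labelled A2) and 66.4, 60.9 and 60.5 CPM in WT. At day 3 it had 125, 101 and 107 CPM in KO and 131, 127 and 132 CPM in WT. At day 5 it had 118, 60.5 and 87.5 CPM in KO and 97.8, 102 and 119 CPM in WT. KO libraries were below WT by a narrow gap at day 3 and overlapped with WT at the other stages. The KO difference was 0.16 ± 0.17 in EpiLC, -0.21 ± 0.16 at day 3 and -0.26 ± 0.16 at day 5 (edgeR adjusted p = 0.559, 0.451 and 0.301), with 95% intervals from -0.57 to 0.14 at day 3 and from -0.62 to 0.10 at day 5. Without KO B1 the day 5 difference was -0.05, and without KO A5 it was -0.50, which passed (adjusted p = 0.0280). The highest group was WT day 3 (130 ± 2.84 CPM), apart from the rest, while KO day 3 (111 ± 12.4), WT day 5 (106 ± 11.1), KO day 5 (88.7 ± 28.9), KO EpiLC (72.2 ± 5.17) and WT EpiLC (62.6 ± 3.27 CPM) each overlapped with the next.

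Partners of the cadherins at the adherens junction (12 genes, 11 tested) were compared between KO and WT. In EpiLC edgeR called 1 and DESeq2 2, while 7 had an unadjusted p under 0.05. Of all tested genes, edgeR called 11.1% there. The list's median there was 0.33, against 0.01 for all tested genes, and it was 0.01 without the library labelled KO A2. Ctnnd1, the p120 catenin that binds the cadherin tail, rose to 327 ± 83.4 CPM in KO EpiLC, against 230 ± 5.90 CPM in WT (0.47 ± 0.14, adjusted p = 0.0401), and no partner passed as lower. That call was lost without the library labelled KO A2 and without any WT library. At day 3 and day 5 edgeR and DESeq2 called 0 of 11, with 1 and 2 at an unadjusted p under 0.05. At these days edgeR called 10.2% and 17.5% of all tested genes. Ctnnb1, which encodes beta-catenin, was at 0.18 ± 0.11, 0.14 ± 0.11 and 0.03 ± 0.11 at the 3 stages (adjusted p = 0.294, 0.491 and 0.870). Ctnna1, the link from catenin to actin, had 629 ± 38.5 CPM in KO and 808 ± 17.9 CPM in WT at day 3 (-0.35 ± 0.20, adjusted p = 0.312). From EpiLC to day 3 KO raised 3 of 11, among them Nectin4 (1.75 ± 0.31), and lowered 2, among them Nectin1 (-1.2 ± 0.19). WT raised 6, with Nectin4 (1.76 ± 0.31) and Ctnna1 (1.2 ± 0.21) among them, and lowered 1, Nectin1 (-2.04 ± 0.19). The list's median was 0.31 in KO, against -0.03 for all tested genes, and 0.44 in WT, against 0.00 for all. In this step 42% of all tested genes were called in KO and 57.5% in WT.

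Tight junction genes (18, all tested) include the partners of Cldn6 and Jam2. In the step to day 3, 42% of all tested genes were called in KO and 57.5% in WT. From EpiLC to day 3 KO raised 5 and lowered 2 (median 0.48), with Tjp3, a scaffold of tight junctions (2.19 ± 0.17), the claudin gene Cldn9 (1.46 ± 0.47) and F11r (0.97 ± 0.18) up and Jam3 down (-1.27 ± 0.27). WT raised 10 and lowered 2 (median 0.51), among them Tjp3 (3.70 ± 0.18), Cldn9 (2.46 ± 0.47) and Cldn3 (2.39 ± 0.49) up and Cldn5, the endothelial claudin, down (-2.95 ± 0.39). In EpiLC 1 rose in KO and none of them fell: Tjp1, the ZO-1 scaffold, had 304 ± 85.7 CPM in KO and 194 ± 11.7 CPM in WT (0.60 ± 0.15, adjusted p = 0.0233), a call lost without the library labelled KO A2 or any WT library. Against WT, Tjp3 fell in KO to 71.7 ± 21 CPM, against 160 ± 5.44 CPM, at day 3 (-1.15 ± 0.16, adjusted p = 0.000182) and to 56.4 ± 3.75 CPM, against 89.7 ± 7.94 CPM, at day 5 (-0.67 ± 0.16, adjusted p = 0.00732), and both calls held without any 1 library. Cldn5 rose in KO at day 3 (9.02 ± 3.77 against 3.48 ± 0.340 CPM, 1.36 ± 0.41, adjusted p = 0.0464) and at day 5 (1.21 ± 0.37, adjusted p = 0.0343). Jam3, a relative of Jam2, rose at day 3 to 11.2 ± 3.12 CPM in KO, against 5.46 ± 1.30 CPM in WT (1.05 ± 0.30, adjusted p = 0.0355), the opposite of Jam2, and F11r, which encodes another JAM, was at 0.15 ± 0.18 (adjusted p = 0.655). Cldn9, next to Cldn6, fell at day 5 to 1.84 ± 0.122 CPM in KO, against 5.14 ± 0.490 CPM in WT (-1.46 ± 0.41, adjusted p = 0.0214). The Cldn5, Jam3 and Cldn9 calls were lost without any of the 3 WT libraries of their stage. In all, 2 rose and 1 fell at day 3 and 1 rose and 2 fell at day 5, and without line A2 4 rose and 4 fell at day 3 and 3 rose and 6 fell at day 5. Of all tested genes, 11.1% were called in EpiLC, 10.2% at day 3 and 17.5% at day 5. Without line A2 the shares were 20.9% at day 3 and 29.9% at day 5. Cldn7, which binds Epcam, had 72.7 ± 28.2 CPM in KO and 109 ± 1.99 CPM in WT at day 3 (-0.57 ± 0.30, adjusted p = 0.258).

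Desmosomes are the second kind of cadherin junction, built from desmogleins and desmocollins, and 11 genes of desmosomes and the epithelial surface were tested. KO raised 3 of 11 from EpiLC to day 3 and lowered 1 (median 0.30), Dsg2 up (0.63 ± 0.17) and Dsc2 down (-1.12 ± 0.30). WT raised 7 and lowered none (median 1.30), with Dsp, the desmoplakin gene, at 3.75 ± 0.79 and Dsg2 at 1.61 ± 0.17. Of all tested genes, 42% were called in the KO step and 57.5% in the WT step. In EpiLC Perp, a desmosome-associated membrane protein, rose to 40.7 ± 26.2 CPM in KO, against 9.98 ± 1.82 CPM in WT (1.99 ± 0.36, adjusted p = 0.00695), and Dsc2 rose to 18.8 ± 5.84 CPM in KO, against 6.79 ± 1.66 CPM in WT (1.43 ± 0.30, adjusted p = 0.0132), while Spint2, a membrane protease inhibitor, fell (-0.44 ± 0.09, adjusted p = 0.0115). In PGCLC Dsg2 fell in KO to 50.4 ± 4.14 CPM, against 94.2 ± 4.85 CPM in WT, at day 3 (-0.89 ± 0.17, adjusted p = 0.00328) and again at day 5 (-0.70 ± 0.17, adjusted p = 0.00775). St14, the membrane protease that Spint2 inhibits, fell as well (-0.77 ± 0.14 and -0.80 ± 0.14, adjusted p = 0.00227 and 0.000883). So 2 fell and none of them rose at each day, where 10.2% of all tested genes were called at day 3 and 17.5% at day 5. Without line A2, 5 fell and none rose at each day, against 20.9% and 29.9% of all tested genes. The Perp, Dsg2 and St14 calls held without any 1 library, while Dsc2 was lost without WT 1 or WT 2 and Spint2 without WT 3.

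**Figure D5:**
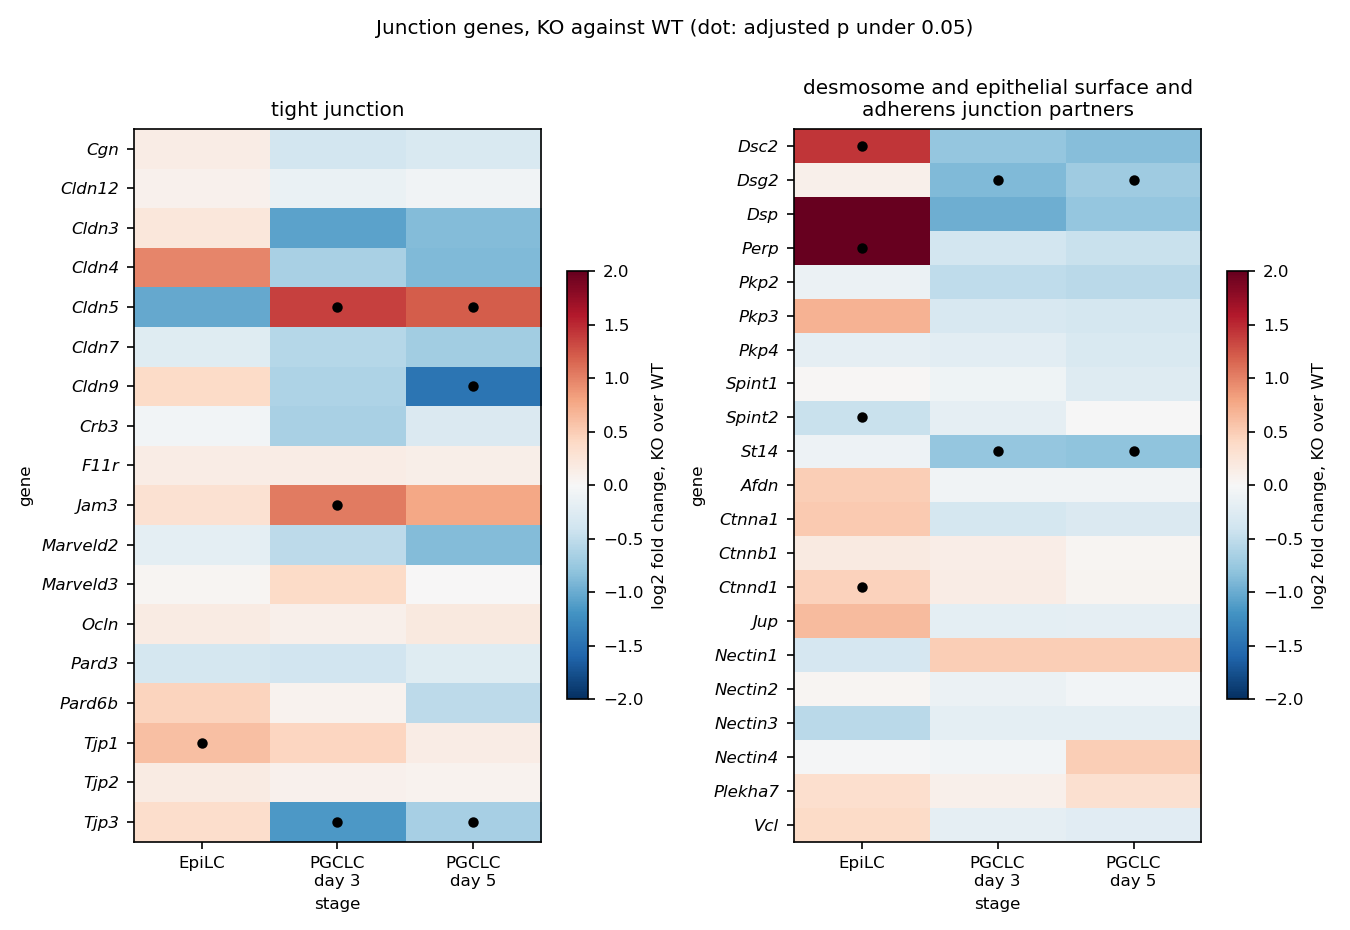
Log2 fold change of KO over WT at the 3 stages for the tested tight junction genes (left) and 21 of the 22 tested genes of desmosomes, the epithelial surface and the adherens junction (right). Red is higher in KO, blue is lower, a dot marks where the edgeR adjusted p was under 0.05, and the colour scale is capped at 2 in either direction. Tjp3, Dsg2 and St14 are dotted as lower in KO at both day 3 and day 5, and Cldn5 as higher.

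Transcription factors that act on these genes were read in 2 lists. From EpiLC to day 3, 42% of all tested genes were called in KO and 57.5% in WT. Of the 6 tested EMT factors (9 listed), Zeb1, a repressor of Cdh1, rose in KO EpiLC to 12 ± 5.32 CPM, against 4.53 ± 0.877 CPM in WT (1.36 ± 0.37, adjusted p = 0.0303), a call lost without the library labelled KO A2. From EpiLC to day 3 KO lowered 2 of them, Zeb2 (-3.80 ± 0.69) and Twist1 (-2.89 ± 0.43), and WT raised 1 and lowered 3, among them Twist1 (-2.21 ± 0.37) and Snai1 (-1.73 ± 0.57). At day 3 edgeR and DESeq2 called 0 of 6 between KO and WT, with 3 at an unadjusted p under 0.05. Of all tested genes, edgeR called 10.2% at day 3 and 17.5% at day 5. At day 5, 3 of 6 rose: Zeb2, to 3.28 ± 1.95 CPM in KO, against 0.350 ± 0.225 CPM in WT (3.13 ± 0.91, adjusted p = 0.0260, 46 counts against 5), Snai1, to 4.54 ± 3.55 CPM in KO, against 1.08 ± 0.306 CPM in WT (2.08 ± 0.58, adjusted p = 0.0209), and Tcf4, to 67.1 ± 18.1 CPM in KO, against 35.1 ± 0.616 CPM in WT (0.94 ± 0.18, adjusted p = 0.00213). Of the 3 calls, that of Tcf4 held without any 1 library, Snai1 was lost without WT 1, WT 2 or KO A2 and Zeb2 without KO B1, KO A2 or any of the 3 WT libraries. Zeb1 at day 5 was at 0.29 ± 0.32 (adjusted p = 0.570). Of 11 epithelial regulators, KO raised 9 and lowered none from EpiLC to day 3 (median 1.87) and WT raised 8 and lowered 1 (median 2.26), among them Tfap2c (3.94 ± 0.41 in KO and 5.01 ± 0.44 in WT), which is also a germ cell factor. Against WT, Grhl3, a grainyhead factor of epithelia, fell in KO to 26.0 ± 2.50 CPM, against 60.3 ± 1.52 CPM in WT, at day 3 (-1.2 ± 0.19, adjusted p = 0.000852) and fell at day 5 (-0.80 ± 0.18, adjusted p = 0.00674), with both calls kept without any 1 library. At day 5 Elf3 (0.98 ± 0.26, adjusted p = 0.0158) and Tfap2a (2.42 ± 0.78, adjusted p = 0.0427, 75 counts in KO against 14 in WT) rose in KO, but Elf3 was lost without WT 1, WT 2 or KO B1, and Tfap2a without any WT library, KO A5 or KO A2. In EpiLC edgeR called 0 of 11, DESeq2 called 1 and 3 had an unadjusted p under 0.05. Of all tested genes, edgeR called 11.1% in EpiLC.

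Genes whose profile over the 18 libraries came closest to each of the 6 were found by the root mean square difference of centred log2 CPM among 10890 genes. For Cdh1 they were Afg3l1 (0.0903), Nup93 (0.0957) and Atp5a1 (0.103). Afg3l1 and Nup93 also lie on chromosome 8, and Atp5a1 lies on chromosome 18. Any part of the chromosome 8 shift in this likeness was not tested. The closest to Cdh3 were Gna13 (0.166), Uaca (0.166) and Ctsa (0.174), none on chromosome 8. Cdh2 came closest to Ccnd1 (0.339), Cdkn2a (0.465) and Creb3l1 (0.468), all highest in KO EpiLC. For Epcam they were Snx5 (0.135), Gas5 (0.138) and Taf1d (0.143), and for Cldn6 they were Cgn (0.137), Sos1 (0.173) and Vps13c (0.196), of which Cgn encodes cingulin, a tight junction protein, and Sos1 lies on chromosome 17 as Cldn6 does. For Jam2, whose profile spans the widest range, they were Mep1b (0.390), Aqp3 (0.567) and Nanog (0.619), against a median of 2.62 over all genes compared. Nanog, a core pluripotency factor that germ cells also express, had 467 CPM in KO and 834 CPM in WT at day 3. Among the 6 genes themselves Cdh1 and Epcam were the closest pair (0.256) and Cdh2 and Jam2 the farthest (3.70). The libraries share depth and lines, so these distances are descriptions without a test.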

How the data were processed

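PolyA RNA from 18 libraries, 3 in each of 6 groups, was prepared with a directional kit, per the labels' protocols. The deposited values are read counts per gene made by the authors, and the authors also deposited CPM, which equal those counts scaled to each library's total within 1e-06. Trim Galore 0.4.3.1, mm10 and GRCm38.p4 are named in the submitters' processing notes, and which aligner and counter were used, and whether strand was used, is not given in the sources used here. Of 25965 rows, 56 name no gene (0.0559% to 0.0828% of counts) and were left out. GENCODE M21 gave the positions of 24990 of 25909 genes.

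Counts were tested with edgeR 4.0.16 (R 4.3.3): TMM scaling (factors 0.964 to 1.04), filterByExpr by group (12856 genes kept), 6 group means over all 18 libraries (12 residual degrees of freedom), robust quasi-likelihood F tests, and Benjamini-Hochberg adjustment within each comparison at 0.05. All adjusted p-values are from edgeR unless another tool is named. Log2 CPM used a prior count of 2. Alternatives were RLE size factors, no filter, DESeq2 1.42.0, limma-trend (limma 3.58.1) on log2 of the deposited CPM plus 1 with and without subtraction of chromosome medians, only the groups compared, no line A2, a replicate block and leaving out each library. The scripts were tested on simulated data. Replicate names recur across stages: same-named KO libraries deviated together (correlation 0.110 to 0.588 in 9 of 9 pairs), while WT numbers did not (-0.05 to 0.07). KO and WT share no names. Chi-square per degree of freedom between replicates of a group was 3.88 to 33.6 in KO and 1.11 to 1.80 in WT, so no 2 replicates held the same counts. It does not tell whether 1 WT RNA was sequenced more than once. Late PGCLC are called day 5, although the labels of these libraries also use another day number.

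The 6 genes and the gene lists were chosen with earlier results of these data known. Named from each list were up to 4 called genes with the largest change per comparison, and known partners or regulators of the 6. Vim is named outside this rule. Named as similar were the 3 genes with the smallest distance to each, among genes with at least 5 CPM in the highest group, predicted gene models passed over. 1 gene of the desmosome and epithelial surface list is counted in that list but not reported here.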

Additional observations from a re-analysis of the deposited data

Results flagged for a closer look

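No test of the difference between KO and WT steps passed for the 6 genes, but for 8 genes of the lists the step from EpiLC to day 3 differed between KO and WT (edgeR interaction, KO step minus WT step, called for 6.59% of all tested genes). The difference was -1.51 for Tjp3 (adjusted p = 0.00278), -2.20 for Dsc2 (adjusted p = 0.00800), -2.36 for Perp (adjusted p = 0.0106) and 2.38 for Cldn5 (adjusted p = 0.0170), and these 4 held without any 1 library. It was -1.58 for Grhl3 (adjusted p = 0.0172), lost without WT EpiLC 2. It was -0.99 for Dsg2 (adjusted p = 0.0262), -3.96 for Tagln (adjusted p = 0.0244) and -1.48 for Esrp2 (adjusted p = 0.0380), each lost without several libraries, Esrp2 without the EpiLC library labelled KO A2 among them.

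The levels show different patterns behind these values. Perp had 40.7 ± 26.2 CPM in KO EpiLC and 9.98 ± 1.82 CPM in WT EpiLC, and 28.2 ± 8.87 CPM in KO and 36.9 ± 1.05 CPM in WT at day 3. Dsc2 likewise had 18.8 ± 5.84 in KO EpiLC, against 6.79 ± 1.66 CPM in WT EpiLC, and 8.53 ± 2.54 in KO, against 15.0 ± 0.282 CPM in WT, at day 3. Grhl3 began at 4.40 ± 2.24 CPM in KO EpiLC and 3.30 ± 0.389 CPM in WT EpiLC and parted at day 3. Tagln had 66.9 ± 74.4 CPM in KO EpiLC, against 2.65 ± 0.811 CPM in WT EpiLC, with mesenchyme markers highest in the library labelled KO A2.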

How the results depend on the processing

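RLE scaling and the replicate block changed no call of the 6 genes, and DESeq2 changed 1 (Epcam in EpiLC). The block moved the share of all genes called in the interaction from EpiLC to day 3 to 11.3%, against 6.59% without it, and from day 3 to day 5 to 1.66% in KO and 3.01% in WT, against 0.552% and 0.77%. No paired analysis was possible because KO and WT share no replicate names, where they were compared with each other. Of the 6 genes, 0 were called between KO and WT in EpiLC with no filter (5.76% of all tested genes called), with limma-trend (10.2%), with chromosome medians subtracted (11.5%) or with only the groups compared (0.0168%), against 2 as reported (11.1%). At day 3 it was 1 with chromosome medians subtracted (11.6% of all). Between day 3 and day 5 it was 4 in WT with only the groups compared (Jam2 0.35, Cldn6 -0.32, Epcam -0.24 and Cdh1 -0.13). There 30.9% of all genes were called, against 0.77% as reported. Without line A2 it was 2 in KO and 2 in WT, where 6.72% of all genes were called in KO and 15.5% in WT (Epcam -0.50 and Jam2 0.76 in KO, Epcam -0.24 and Jam2 0.35 in WT). For the interaction with the step to day 3 it was 1 with limma-trend (7.23% of all genes) and 1 without line A2 (14.7%). The cause of these moves was not tested. Leaving out each library gave 0 to 3 called in EpiLC (1.38% to 18.9% of all genes), 1 to 3 at day 3 (4.74% to 11.2%) and 2 to 3 at day 5 (9.96% to 16.7%). It gave 4 to 5 for the KO step to day 3 (34.1% to 50.1% of all genes) and 4 to 6 for the WT step (49.7% to 51%). For day 5 against day 3 it gave 0 to 0 in KO (0.0686% to 0.565%) and in WT (0.0763% to 0.138%). The first interaction had 0 to 1 (2.76% to 11.7%) and the second 0 to 0 (0%).

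Signs turned, all among differences that were not called. Without line A2 they were Cdh3 in EpiLC (-0.029), Epcam at day 3 (0.0904), and the Cdh2 (0.78) and Jam2 (0.42) interactions. With limma-trend it was the Epcam step in KO (0.0029). With chromosome medians subtracted they were Cdh1 from day 3 to day 5 in KO (-0.0109) and the Cdh1 interaction (0.0329). Over single libraries left out, Cdh3 in EpiLC ranged from -0.026 to 0.111, Epcam at day 3 from -0.134 to 0.0944, the Epcam step in KO from -0.25 to 0.12, Cdh1 from day 3 to day 5 in KO from -0.0343 to 0.0654, the first interaction from -0.074 to 0.0527 for Cdh1, -0.38 to 0.61 for Cdh2 and -1.28 to 0.21 for Jam2, and the second for Cldn6 from -0.29 to 0.16. Depth limits Jam2 in EpiLC and Cdh2 in PGCLC, with 1 to 29 counts a library.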

Other observations

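Of 14 other cadherin genes, 7 were abundant enough to test. From EpiLC to day 3, 5 of 7 fell and none rose in KO (median -1.14, against -0.03 over all tested genes) and 4 of 7 fell and none rose in WT (median -0.90, against 0.00 over all). Of all tested genes, 42% were called in KO and 57.5% in WT. Cdh10, a type II cadherin known from the nervous system, had 7 counts over the 3 KO libraries at day 3 and 133 in KO EpiLC, and 1 count in WT at day 3 and 142 in WT EpiLC. Celsr3, a flamingo cadherin of planar cell polarity, fell in KO (-1.32 ± 0.20) and in WT (-0.90 ± 0.20). Between KO and WT, its relative Celsr1 fell in KO at day 3 to 13.2 ± 0.337 CPM, against 20.2 ± 1.87 CPM in WT (-0.60 ± 0.16, adjusted p = 0.0229), and at day 5 (-0.55 ± 0.15, adjusted p = 0.0190), while Celsr3 rose at day 5 (0.65 ± 0.21, adjusted p = 0.0403). These 3 calls were lost without several single libraries. In EpiLC edgeR and DESeq2 called 0 of 7, with 2 at an unadjusted p under 0.05, where edgeR called 11.1% of all tested genes.

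Of 11 tested mesenchymal effectors, 4 rose and none fell in KO EpiLC (median 2.27): Acta2 (4.86 ± 1.01), Col1a1 (4.70 ± 0.81), Tagln (4.63 ± 0.73) and Mmp14 (2.27 ± 0.51), which encode smooth muscle actin, a collagen chain, transgelin and a membrane metalloprotease. Col1a1 ran from 34.5 to 159 CPM in KO EpiLC and from 2.01 to 3.57 CPM in WT EpiLC, so every KO library was above WT. The Acta2 and Mmp14 calls were lost without any of the 3 WT libraries, while those of Col1a1 and Tagln held without any 1 library. Without the library labelled KO A2 the count was again 4 and 0, but the list's median was 0.17. Of all tested genes, 11.1% were called in EpiLC, and 4.57% without that library. At day 3 edgeR and DESeq2 called 0 of 11, with 2 at an unadjusted p under 0.05, and at day 5 Col1a1 rose (2.83 ± 0.78, adjusted p = 0.0210), a call lost without several single libraries, while without line A2 6 rose and 1 fell at day 3 and 6 rose and none fell at day 5. The shares of all tested genes called at these days were 10.2% and 17.5%, and 20.9% and 29.9% without line A2. Vim, the vimentin gene, had 66.9 ± 11 CPM in KO and 32.8 ± 2.57 CPM in WT at day 3, and 130 ± 33.2 CPM in KO and 56.1 ± 4.5 CPM in WT at day 5. With all libraries, edgeR called Vim at neither day.

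Set against Cldn6 in the same library, Jam2 counts were 30.2% (A5), 36.8% (B1) and 20.8% (A2) in KO and 69.4%, 74.5% and 66.8% in WT at day 3, without overlap. At day 5 they were 46.8%, 123.1% and 38.6% in KO and 126%, 119% and 92.8% in WT, where B1, the KO library with the least Cldn6, overlapped with WT.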
